A study of Mus musculus with 71 samples.

Results

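The regions described here are the narrow peaks of Suz12 in mouse embryonic stem (ES) cells, selected on their measured width alone, as every interval under 1000 bp in the authors' list of Suz12 peaks. There were 3590 such peaks among 7480 in all, or 48%. The list came from 1 chromatin immunoprecipitation (ChIP) sample of Suz12 wild-type cells of the strain labelled 129B6F1, with coordinates on the mm10 build. RNA was measured in C57BL/6 ES cells in 3 groups of 3 polyA libraries: wild type (WT), an Ezh1/Ezh2 double knockout (dKO) and a group labelled EZH2 rescue. All groups were kept on gelatin in 2i medium, a medium with inhibitors that holds ES cells in a naive state. The labels name neither the vector of the rescue nor the number of clones behind any group. The peaks and the RNA therefore come from different strains, and no peak list of the dKO or rescue cells was used.

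Suz12 is the scaffold subunit of Polycomb repressive complex PRC2. Its catalytic subunit, Ezh2 or Ezh1, methylates lysine 27 of histone H3, and the trimethylated form marks repressed chromatin. In ES cells PRC2 is known to sit at CpG islands, the CG-rich stretches at many promoters, and its broadest domains cover genes of developmental regulators. Narrow peaks are the other end of that range.

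Ezh1 RNA checked the labels. Its level was 53.4, 48.4 and 47.9 CPM (counts scaled to library size, with TMM factors) in WT, 2.34, 1.83 and 1.8 in dKO, with 2.89, 2.33 and 3.42 in rescue. Ezh2 was at 307.6 to 313.6 CPM in WT, 190.6 to 214.5 in dKO and 548.8 to 575.9 in rescue. All 3 WT libraries lay above dKO for both genes, and rescue was highest for Ezh2 and stayed near dKO for Ezh1. The counts are per whole gene and the labels do not say which part of Ezh2 was deleted, so its dKO level checks nothing. The ES-cell genes Pou5f1, Nanog and Esrrb were abundant in every library, and Nanog ranged from 847.1 to 1190.0 CPM. Sox2 was at 723.3 to 745.5 CPM in WT and lower in both other groups, at 386.2 to 570.2 in dKO and 459.2 to 474.5 in rescue. The summed level of 8 pluripotency markers was 6830 to 7067 CPM in WT, 5723 to 5867 in dKO and 7799 to 7853 in rescue. The part of this in the RNA results below was not tested. Total counts per library ranged from 12457622 to 36009529, and 3 counts, the limit that a count of 0 allows, correspond to 0.0833 to 0.241 CPM. dKO replicate 3 stood apart from the other dKO libraries, with a chi-square per degree of freedom of 22.6 and 22.49 against them, where other replicate pairs gave 2.147 to 11.45. In bulk RNA, fewer cells expressing a gene and less RNA per cell cannot be told apart.

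The promoters below are examples of the sequence at gene starts inside narrow peaks, and the sequence of peaks away from starts was not read. They belong to genes with the largest RNA changes between dKO and WT, or between rescue and WT. In each, the 250 bases before a listed start, for Fhl2 an internal one, lay wholly inside a narrow peak. Each is written 5′ to 3′ on the gene's strand, from RefSeq on GRCm38.p6, the assembly behind mm10, and capitals mark every CG dinucleotide. RNA of Itga11, Pear1, Pdlim4, Fhl2, Ildr2 and Atp6v1c2 rose in dKO, and RNA of Elmo1 and Fbln7 fell.
Itga11: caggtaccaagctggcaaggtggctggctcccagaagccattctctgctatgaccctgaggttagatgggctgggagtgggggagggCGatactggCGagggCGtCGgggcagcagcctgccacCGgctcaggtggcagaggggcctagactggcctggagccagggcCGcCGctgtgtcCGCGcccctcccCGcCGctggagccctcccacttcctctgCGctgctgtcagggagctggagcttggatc
Pear1: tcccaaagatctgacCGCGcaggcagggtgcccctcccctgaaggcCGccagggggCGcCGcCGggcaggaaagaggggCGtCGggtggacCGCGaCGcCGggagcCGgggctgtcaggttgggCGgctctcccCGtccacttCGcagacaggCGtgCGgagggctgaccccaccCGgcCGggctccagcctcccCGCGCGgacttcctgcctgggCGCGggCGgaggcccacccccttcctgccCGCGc
Pdlim4: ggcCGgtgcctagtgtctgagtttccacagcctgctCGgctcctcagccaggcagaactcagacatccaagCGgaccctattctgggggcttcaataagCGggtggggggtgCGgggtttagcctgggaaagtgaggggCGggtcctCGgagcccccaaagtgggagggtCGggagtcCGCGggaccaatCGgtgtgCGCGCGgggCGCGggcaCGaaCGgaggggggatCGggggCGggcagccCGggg
Fhl2: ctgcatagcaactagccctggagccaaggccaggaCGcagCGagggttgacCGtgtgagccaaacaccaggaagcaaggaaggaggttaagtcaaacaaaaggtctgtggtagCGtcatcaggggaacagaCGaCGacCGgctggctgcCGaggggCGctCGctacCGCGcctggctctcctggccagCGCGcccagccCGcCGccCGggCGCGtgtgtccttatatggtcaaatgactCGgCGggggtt
Ildr2: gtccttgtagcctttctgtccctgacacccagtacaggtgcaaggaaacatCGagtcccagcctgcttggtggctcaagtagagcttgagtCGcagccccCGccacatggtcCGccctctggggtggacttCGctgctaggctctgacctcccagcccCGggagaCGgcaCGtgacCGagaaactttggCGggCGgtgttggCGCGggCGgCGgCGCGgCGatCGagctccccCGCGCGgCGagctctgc
Atp6v1c2: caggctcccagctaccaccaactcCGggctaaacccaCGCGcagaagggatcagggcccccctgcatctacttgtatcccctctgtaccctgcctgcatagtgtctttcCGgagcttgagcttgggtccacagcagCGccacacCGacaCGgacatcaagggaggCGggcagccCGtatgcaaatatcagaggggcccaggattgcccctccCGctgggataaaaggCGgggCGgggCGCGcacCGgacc
Elmo1: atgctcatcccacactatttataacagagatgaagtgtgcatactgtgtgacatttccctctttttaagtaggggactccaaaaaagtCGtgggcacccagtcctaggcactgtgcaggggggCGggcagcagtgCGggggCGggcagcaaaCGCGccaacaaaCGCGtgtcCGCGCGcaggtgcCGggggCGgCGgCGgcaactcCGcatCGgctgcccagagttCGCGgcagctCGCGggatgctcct
Fbln7: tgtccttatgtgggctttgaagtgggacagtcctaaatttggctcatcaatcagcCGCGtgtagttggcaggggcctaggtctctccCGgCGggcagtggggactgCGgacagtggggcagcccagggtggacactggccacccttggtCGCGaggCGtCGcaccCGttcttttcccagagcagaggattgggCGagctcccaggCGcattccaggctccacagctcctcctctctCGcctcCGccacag
The 6 promoters of risen genes lie at chr9:62677605-62677854 on the plus strand, chr3:87768954-87769203, chr11:54069018-54069267 and chr1:43163962-43164211 on the minus strand, chr1:166253889-166254138 on the plus strand and chr12:17324731-17324980 on the minus strand. The 2 of fallen genes, Elmo1 and Fbln7, lie at chr13:20090257-20090506 and chr2:128863682-128863931, both on the plus strand. The Pear1 sequence holds 28 CG dinucleotides at 76.8% G+C, the most of the 8, and the Itga11 sequence holds 12 at 68.4%. The fallen Elmo1 holds 21 at 61.6% and the fallen Fbln7 14 at 63.2%. CG-rich sequence was thus present on both sides of the RNA change.

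This composition held across narrow-peak promoters. RefSeq windows of 300 bases, 250 before and 50 after a listed start, were scored for 32851 starts, of which 1543 had their start in a narrow peak. The median narrow-peak window held 26 CG dinucleotides (quartiles 19 and 34) and 67.0% G+C. The same medians were 28 and 68.7% for starts in peaks of 1 to 3 kb, 21 and 63.3% for starts in peaks of 3 kb or more, and 6 and 51.3% for starts in no peak. Windows with fewer than 10 CG made up 5.12% of the narrow-peak windows and 56.5% of all windows. A minority of the windows with their start in a narrow peak were therefore CG-poor. Narrow peaks away from listed starts were not scored.

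Short motifs were searched on both strands as exact letters, and a match is only a description of the window. CGCG was found in 85.0% of the narrow-peak windows and in 38% of all windows. GGCGGGA, the core of many E2F sites, was in 24.7% against 11.3%, and the longer GGCGGGAA, which contains it, in 4.67% against 2.19%. TATAAA was in 4.6% against 13.6%, in 6.02% of windows starting in peaks of 1 to 3 kb and in 10.4% for peaks of 3 kb or more. CCGGAAG, a core bound by ETS factors and typical of housekeeping promoters, was in 12.1% of narrow-peak windows, 6.07% of windows in peaks of 1 to 3 kb, 3.61% in peaks of 3 kb or more and 8.86% of all. Among narrow-peak windows it was in 8.62% of the 615 whose gene rose in dKO, 16.7% of the 216 whose gene fell and 19.7% of the 380 whose gene did not pass the test. CCAAT was in 27.2% against 37.4% of all windows, CACGTG in 8.36% against 7.15%, and CTCGCGA in 4.54% against 1.93%. For starts in peaks of 1 to 3 kb the shares were 28.2%, 8.58% and 3.32%, in that order. The narrow windows were thus closer to the 1 to 3 kb windows than to all windows for CGCG and GGCGGGA, and stood above both wider classes for CCGGAAG.

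Narrow peaks were many but short. Together they covered 2442 kb, or 23.4% of all peak bases, the same share as the 516 peaks of 3 kb or more, while the 3374 peaks of 1 to 3 kb covered 53.2%. Their median width was 652 bp, with quartiles of 550 and 801 bp. A single width stood out: 181 peaks were exactly 548 bp wide, and the next most common width, 566 bp, was shared by 18. The smallest gap between any neighbouring peaks was 806 bp. The peak caller, its threshold and any merging of neighbours were not given in the sources used here, so the part these play in the 548 bp width was not tested.

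**Figure D1:**
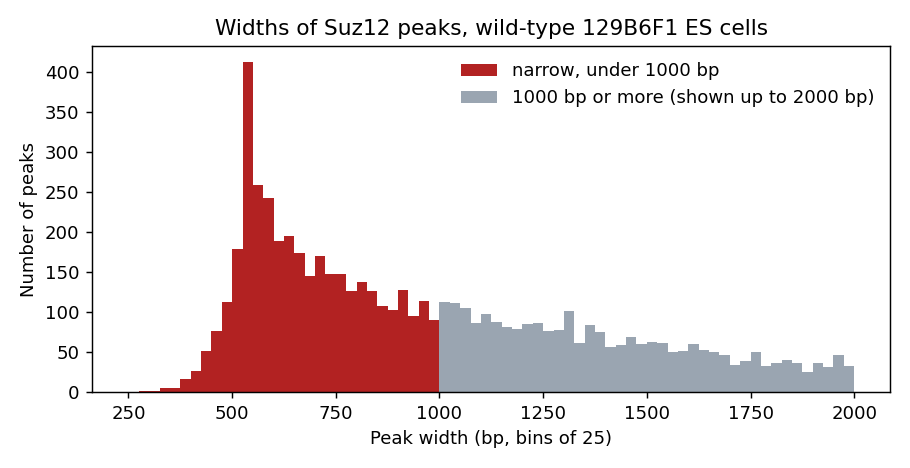
Number of Suz12 peaks by width in bins of 25 bp, for peaks up to 2000 bp, with narrow peaks in red and wider ones in grey. The tallest bin holds the 181 peaks of exactly 548 bp, and the distribution has no gap at the 1000 bp threshold.

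The threshold cuts through a continuous distribution. The narrowest peaks were 281 bp at chr6:31596221-31596501, in no gene, 298 bp at chr10:111473104-111473401, at the start of Nap1l1, and 302 bp at chr11:20455200-20455501, in Gm39606. Just inside the limit were 3 peaks of 999 bp, at the starts of the cyclin gene Ccnj (chr19:40830816-40831814) and of Wdtc1 (chr4:133338325-133339323), and in Gm13067 (chr4:150033018-150034016). Just outside were peaks of 1000 bp at the starts of Fmnl1 with Gm51919 (chr11:103170564-103171563), of Zeb1 with Gm10125 and of Fign (chr2:64097841-64098840).

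Most narrow peaks lay at gene starts, but fewer than among wider peaks. A gene start lay within 1 kb of 2164 narrow peaks, or 60.3% (95% Wilson interval 58.7 to 61.9). The share was 73.7% (72.2 to 75.1) for peaks of 1 to 3 kb and 84.1% (80.7 to 87.0) for peaks of 3 kb or more. The 3 intervals did not overlap. They cover counting error over the peaks of 1 sample only, and a wider peak reaches more starts by its length alone. Within 5 kb the narrow share was 72.4%, and with starts of protein-coding genes alone it was 52.0%. The start itself was inside 47.3% of narrow peaks, 64.4% of middle ones and 80.4% of broad ones. Here and below, middle means 1 to 3 kb and broad means 3 kb or more.

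The other 1426 narrow peaks were away from starts. Of these, 938 (26.1% of all narrow peaks) overlapped a gene body and 488 (13.6%) lay outside every gene of the reference table. Peaks outside genes made up 6.55% of the middle and 4.07% of the broad class. A start of exactly 1 gene was near 1771 narrow peaks, starts of 2 genes were near 385, and 8 peaks had 3 or more. No strand is listed for some genes, and for those either end was counted as a possible start, which can only raise the shares. With starts from the strand-aware promoter table alone the narrow share was 44.7% and the middle and broad shares were 54.9% and 61.2%.

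Narrow peaks at starts sat just downstream of them. Among the 1573 narrow peaks whose centre was within 1 kb of a listed start, the median centre was 121 bp downstream, with quartiles from 2 bp upstream to 244 bp downstream. The centre was downstream for 1172 of them, or 74.5%. For middle peaks the median was 231 bp and for broad peaks 203 bp, both downstream. At the other end, 487 narrow peaks (13.9%) had their centre over 50 kb from a listed start.

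**Figure D2:**
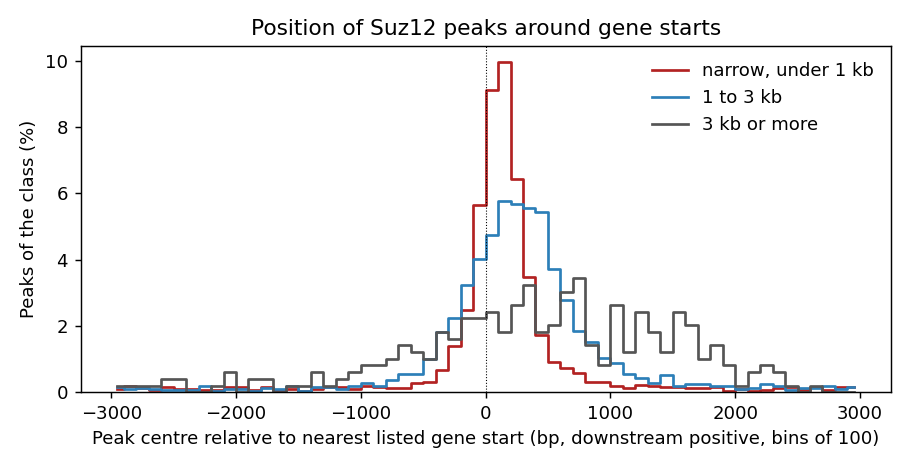
Share of the peaks of each width class by the distance of the peak centre from the nearest listed gene start, in bins of 100 bp, with downstream positive. The narrow class is the most tightly gathered, with its highest bins just downstream of the start, around the median of 121 bp.

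Width and position varied together inside the narrow class. A start lay within 1 kb of 37.6% of the 298 peaks under 500 bp, 45.9% of the 401 peaks of 500 to 547 bp and 50.8% of the 181 peaks of 548 bp. The share was 63.6% for the 1532 peaks of 549 to 749 bp and 68.1% for the 1178 of 750 to 999 bp. The next step outside the class, 1000 to 1249 bp, gave 71.5% of 932 peaks. The least wide peaks were thus the least often at starts.

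Narrow peaks were mostly isolated. The nearest other peak of any width was at a median gap of 55.7 kb, with quartiles of 16 and 137.2 kb. The median was also 55.7 kb for middle peaks and 10.4 kb for broad ones. Another peak lay within 10 kb of 652 narrow peaks, or 18.2% (95% Wilson interval 16.9 to 19.5), against 23.2% (21.8 to 24.7) of middle and 49.8% (45.5 to 54.1) of broad peaks. These intervals cover counting error over the peaks of 1 sample only. They take peaks as independent, while close peaks count each other, so they can be too tight. Within 2 kb the share was 5.88% of narrow and 8.68% of middle peaks. Within 50 kb it was 47.4% of narrow, 48.1% of middle and 48.9% of all peaks. For 71 narrow peaks (1.98%) the nearest peak was over 1 Mb away, beside 2.05% of middle and 1.97% of all peaks. The 3 most isolated were at the starts of Lonrf3 on chromosome X, 15352 kb from any other peak, of Arhgap6 on chromosome X, at 6152 kb, and of the glycogen branching enzyme gene Gbe1 on chromosome 16, at 4097 kb.

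Few narrow peaks lay beside broad ones, which are few in the whole list. The nearest peak was narrow for 49.6% of narrow peaks, middle for 44.6% and broad for 5.68%. These shares are near those of the classes among all peaks, 48%, 45.1% and 6.9%. A broad peak lay within 10 kb of 100 narrow peaks, or 2.79%. The same share was 5.31% of middle, 21.7% of broad and 5.23% of all peaks. Narrow peaks with a neighbour were less often at starts: 42.2% of the 652 with another peak within 10 kb had a start within 1 kb, against 64.3% of the 2938 without. Of the 100 beside a broad peak, 32 had a start near, 39 lay in a gene body and 29 outside genes.

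In 3 windows of 100 kb narrow peaks were crowded. On chromosome 8, between 123540239 and 123629362, 27 narrow peaks among 34 peaks lay over the array of 5S ribosomal RNA genes, the n-R5s series. On chromosome 6, between 114533282 and 114629751, 17 narrow peaks among 31 lay with no gene start near any of them. On chromosome 4, between 88757355 and 88803527, 8 narrow peaks among 13 lay over the cluster of interferon zeta genes that holds Ifnz and Gm13272. The windows over repeated gene copies were 2 of the 3, and how reads with several matches were handled is not given in the sources used here. Without these windows 3538 narrow peaks remained, 60.2% of them near a start and 17.0% within 10 kb of another peak.

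By chromosome, the number of narrow peaks ran from 325 on chromosome 2 to 91 on chromosome 18 among the autosomes. Per 100 protein-coding genes it ran from 10.5 on chromosome 7 to 24.3 on chromosome 8, the chromosome with the 5S array. Chromosome X had 39 narrow peaks among 61 in all, or 4.04 per 100 protein-coding genes, the lowest value. Narrow peaks were thus sparse on X, and made up 63.9% of the few peaks there.

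For RNA, a gene was placed in the narrow class when a narrow peak lay within 1 kb of its start and no wider peak did. That gave 2032 of the 24222 counted genes, 1906 of them protein-coding, 71 lncRNA and 35 miRNA genes. Enough counts to be tested were present for 1687 of them, or 83.0%, against 74.9% of middle, 60.4% of broad and 53.9% of no-peak genes. The remaining narrow-class genes had too few counts for a test. A gene that is silent in WT passes this filter only through a group where it is high, so the counts below describe the genes that passed and not every member. The labels do not say that replicates were separate cultures, so p-values measure the spread between these libraries, which may be technical.

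In dKO against WT, narrow-class genes rose more often than they fell. With edgeR's quasi-likelihood test and a Benjamini-Hochberg adjusted p under 0.05, 801 of the 1687 rose, or 47.5%, where 33.7% of all 14145 tested genes rose. In the other direction 348 fell, or 20.6%, where 31% of all tested genes fell, and 538 did not pass. The median log2 fold change was 0.23 (quartiles -0.16 and 1.12), beside 0.00 over all tested genes. Changes over 2-fold were 455 upward, or 27% (all genes 19.1%), and 50 downward, or 2.96% (all genes 4.39%). Without dKO replicate 3, 858 of 1705 rose and 392 fell. No test compared the class with other genes.

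The shift was smaller than at wider peaks. Among middle genes 66.0% rose and 13.0% fell, with a median of 0.92, and among broad genes 80.4% rose and 8.0% fell, with a median of 1.95. Among genes with no peak 24.5% rose and 36.5% fell, with a median of -0.10. These differences between classes were not tested. TMM scaling sets the bulk of genes near no change, so rises and falls are relative to it. A change common to all genes would not be seen. Among the 1416 narrow-class genes with a mean of at least 2 CPM, 42.7% rose and 23.5% fell, beside 28.6% and 35.5% of all genes at that level. In this same fit their median was 0.14, beside -0.07 for all genes at that level, where the whole class had 0.23 beside 0.00. Of these genes 19.2% rose by over 2-fold.

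The class medians were alike across the libraries of a group. On the log2(CPM + 0.5) scale relative to the WT mean, the narrow median was 0.23, 0.231 and 0.215 in the dKO libraries. It was -0.006, -0.003 and 0.015 in WT and -0.007, -0.027 and 0.006 in rescue. All dKO libraries lay above all WT and rescue libraries, and WT and rescue overlapped. Middle genes gave 0.737 to 0.779 in dKO, and broad genes 1.162 to 1.256. In rescue, middle genes stood at 0.047 to 0.091 and broad genes at 0.232 to 0.333.

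**Figure D3:**
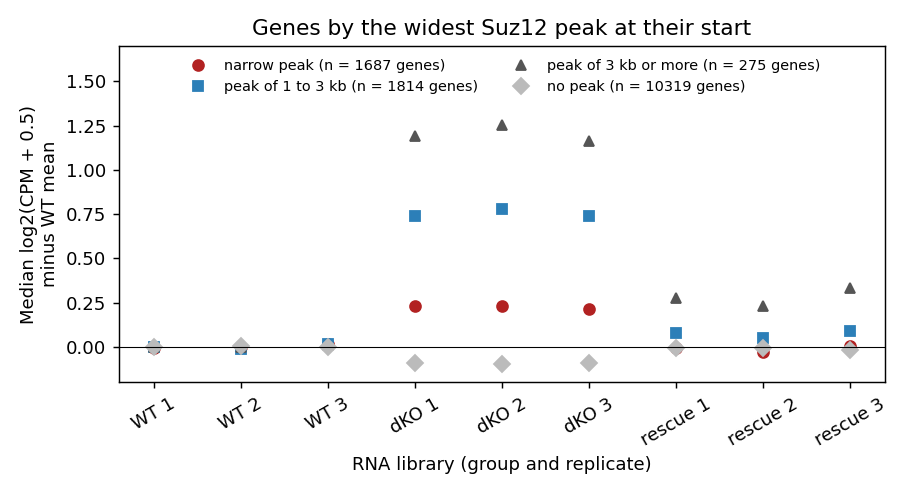
Median over genes of log2(CPM + 0.5) minus the WT mean, for each RNA library and each class of genes by the widest Suz12 peak at their start. Narrow-class genes stand at 0.215 to 0.231 in the dKO libraries, between the no-peak and the middle genes, and near 0 in WT and rescue.

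In rescue against dKO, a comparison that shares the dKO libraries with the one above, 902 narrow-class genes fell, or 53.5% (all tested genes 38.2%). In the same edgeR fit 377 rose, or 22.3% (all tested genes 32.1%), and 408 did not pass. The median log2 fold change was -0.33, beside -0.04 over all tested genes. Changes over 2-fold were 467 downward, or 27.7% (all genes 19.9%), and 58 upward, or 3.44% (all genes 5.03%). Without dKO replicate 3, 944 of 1705 fell and 419 rose.

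In rescue against WT the narrow class was near the background of all genes. There 446 rose, or 26.4% (all tested genes 26.8%), 506 fell, or 30% (all tested genes 27.3%), and 735 did not pass. The median log2 fold change was -0.01, beside 0.00 over all tested genes. Over 2-fold, 121 rose, or 7.17% (all genes 6.43%), and 124 fell, or 7.35% (all genes 6.5%). Among broad genes 38.9% rose, with a median of 0.54, and the difference from the narrow class was not tested.

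Within the class, the shares that rose and fell in dKO varied with the width of the peak. Of 102 tested genes with a peak under 500 bp, 33.3% rose and 31.4% fell in dKO against WT, with a median log2 fold change of 0.03. For 500 to 547 bp (151 genes) it was 29.8% and 34.4%, with a median of -0.06, and for 548 bp (68 genes) 38.2% and 27.9%, with a median of -0.05. From 549 to 749 bp (720 genes) 46.7% rose, 19.4% fell and the median was 0.21. From 750 to 999 bp (646 genes) 55.7% rose, 16.3% fell and the median was 0.42. Just outside the class, 490 genes with peaks of 1000 to 1249 bp had 59.6% risen and a median of 0.71. Genes with peaks up to 547 bp were thus close to the background of 33.7% risen and 31% fallen.

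**Figure D4:**
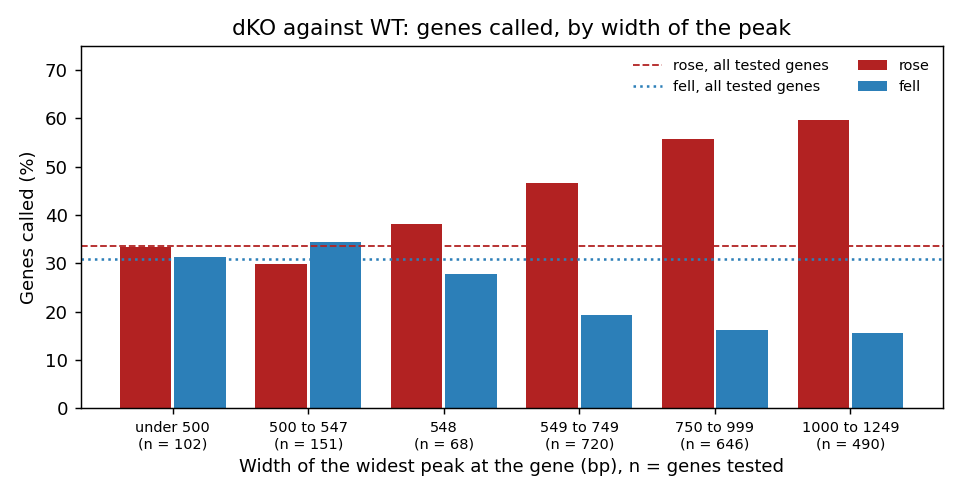
Share of tested genes that rose (red) or fell (blue) in dKO against WT by edgeR's test, by the width of the widest peak at the gene, with the number tested under each pair of bars and the shares over all tested genes as lines. Up to 547 bp the risen share is 33.3% and then 29.8%, and above that it is higher in each wider bin, at 55.7% for 750 to 999 bp, while the fallen share is 31.4%, then 34.4%, and 16.3% for 750 to 999 bp.

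The place of the peak in the gene was also followed. Over all tested genes 33.7% rose and 31% fell in dKO against WT. For the 1328 tested genes whose start lay inside the peak, 677 rose (51.0%) and 248 fell (18.7%) in dKO, with a median of 0.29. For the 1026 with no other peak within 50 kb, 473 rose (46.1%) and 228 fell (22.2%), with a median of 0.20. These were close to the values of the whole class. For the 67 with a wider peak within 10 kb, 40 rose (59.7%) and 6 fell (8.96%), with a median of 0.54. Genes that shared their narrow peak with another counted gene were near the background. Of 277, 81 rose (29.2%) and 78 fell (28.2%), with a median of -0.02. A narrow peak in the gene body with no peak at the start marked 383 tested genes. Of these, 172 rose (44.9%) and 85 fell (22.2%), with a median of 0.22. None of these subsets was tested against another.

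The largest rises in dKO were at genes low in WT. Here a peak at a start means one within 1 kb of any listed start. Itga11, an integrin subunit that binds collagen, had a peak of 870 bp at its start. It was at 0.0, 0.0933 and 0.0 CPM in WT, 9.04, 8.96 and 8.1 in dKO, with 0.143, 0.14 and 0.13 in rescue. dKO lay above every library of the other groups, and both of those were near the limit of detection. The pooled dKO level was 238.8 times that of WT (533 counts against 2, exact 95% interval 65.8 to 1977, counting error only), and edgeR's Benjamini-Hochberg adjusted p was 6.35e-09. The same ratio of rescue to WT was 3.83 (11 counts against 2, 0.836 to 35.5), which does not set them apart. Itga11 stands on the list of matrix and fibroblast genes. Of the 26 genes of that list, 21 were tested, and their summed level was 6368 to 6785 CPM in WT, 4064 to 4982 in dKO and 7023 to 7515 in rescue. Over all peak classes 14 of the 21 rose and 4 fell in dKO, so the sum, in which the abundant Lamc1 takes part, went the other way from most members. Col3a1 and Lum had at most 1 count in any group, Dcn, Acta2 and Postn were at 0 in WT, and Thy1 was at 1.13 to 2.62 CPM in WT, 28.7 to 30.8 in dKO and 1.45 to 1.8 in rescue. The part of such cells in the rise was not tested.

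Pdlim4, which encodes a PDZ and LIM domain protein of the actin cytoskeleton, had a peak of 971 bp. It was at 1.03, 0.839 and 0.67 CPM in WT, 29.4, 27.9 and 28.9 in dKO, with 1.0, 0.794 and 1.12 in rescue. dKO stood far above both other groups, which overlapped. The log2 fold change of dKO against WT was 5.10 (SE 0.15, edgeR adjusted p 2.35e-10), and that of rescue against dKO was -4.86 (SE 0.138, adjusted p 2.04e-10). Atp6v1c2, a subunit of the vacuolar proton pump, was at 0.757 to 0.839 CPM in WT, 29.2, 23.0 and 16.2 in dKO, and 0.865 to 0.943 in rescue, with a log2 fold change of 4.79 (SE 0.244, edgeR adjusted p 1.32e-08). Its dKO libraries varied more than those of Pdlim4 and still lay above every other library.

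Other large rises were at low levels. Lrrc32, a membrane anchor of latent TGF-beta, reached 1.28 to 2.71 CPM in dKO from 2 counts in the 3 WT libraries, a ratio of 62.7 (exact 95% interval 17.0 to 523.1). Pear1, a platelet and endothelial receptor, reached 1.2 to 2.69 CPM, a ratio of 55.6 (15.1 to 463.9). The sulfotransferase gene Chst1 went from at most 0.138 CPM in WT to 1.84 to 3.41 in dKO. The LIM-domain gene Fhl2, with its peak at an internal listed start, went from at most 0.103 to 2.65 to 3.75. Ildr2, an immunoglobulin-like receptor gene, went from at most 0.14 CPM to 1.66 to 2.71, and in rescue stayed at 0.514 to 0.629, above every WT library. All 5 were called in dKO against WT by edgeR, with adjusted p between 4.13e-07 (Fhl2) and 2.7e-05 (Lrrc32). The call and the absence of overlap were conditions for naming these genes, so neither is further evidence.

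The largest falls included genes well above the limit of detection in WT. Calb2, encoding the calcium-binding protein calretinin, had a peak of 619 bp at one end of the gene, no start being listed for it, and was at 46.5, 48.3 and 44.4 CPM in WT, 3.84, 3.71 and 4.19 in dKO, with 29.7, 30.3 and 30 in rescue. The 3 groups did not overlap, and rescue lay between the others. The log2 fold change was -3.56 in dKO against WT (SE 0.0856, edgeR adjusted p 7.66e-11) and 2.93 in rescue against dKO (SE 0.0855, adjusted p 2.04e-10). Cd80, a costimulatory ligand of immune cells, had a peak of 467 bp at an internal listed start. Its level was 11.2, 11.9 and 13.6 CPM in WT, 0.527, 0.768 and 0.599 in dKO, with 11.3, 11.8 and 11.7 in rescue. Rescue and WT overlapped, with a log2 fold change of -0.08 (SE 0.108, edgeR adjusted p 0.554). On the list of blood and immune genes 15 were found and 9 tested, with a summed level of 524.5 to 549.3 CPM in WT, 367.4 to 379.6 in dKO and 478.9 to 513.8 in rescue. Ptprc, the pan-leukocyte marker, was at 6 counts in WT, 0 in dKO and 3 in rescue. The haemoglobin genes Hbb-bt and Hba-a1 were at 0 in every group.

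Some falls were not undone in rescue. Elmo1, a regulator of Rac signalling in cell migration, with a peak of 967 bp, was at 57.0, 56.7 and 56.5 CPM in WT, 14.5, 14.8 and 9.78 in dKO, with 11.1, 12.7 and 11.9 in rescue. WT stood above both other groups, which overlapped. Rescue against WT gave a log2 fold change of -2.25 (SE 0.128, edgeR adjusted p 1.49e-07). Rescue against dKO gave -0.12 (adjusted p 0.442), and -0.30 (adjusted p 0.00389) without dKO replicate 3. Filip1, a filamin-interacting protein gene with a peak of 518 bp at an internal listed start, was at 3.86, 3.03 and 3.56 CPM in WT, at most 0.128 in dKO and at most 0.0572 in rescue. The WT level was 91.0 times that of rescue (190 counts against 3, exact 95% interval 30.7 to 445.1). Filip1 lies on chromosome 9, where earlier work on these files saw raised or lowered segments, and their part in this fall was not tested. Nhs and the adaptor-complex gene Ap3b2 lay between these patterns. Nhs fell from 4.85 to 5.3 CPM in WT to 0.299 to 0.377 in dKO and stood at 2.6 to 3.5 in rescue. Ap3b2 fell from 45.3 to 50.9 to 7.94 to 12.0 and stood at 24.3 to 25.8.

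Other genes ended higher in rescue than in both other groups. Cemip, encoding a hyaluronan-binding protein, was at 1.51 to 2.63 CPM in WT, 3.01 to 4.63 in dKO, with 23.2, 24.7 and 25.2 in rescue. Its log2 fold change was 3.6 in rescue against WT (SE 0.185, edgeR adjusted p 7.91e-08) and 2.71 against dKO (SE 0.167, adjusted p 5.14e-08). Ksr2, a scaffold of MAP kinase signalling, was at 0.42 to 0.482 CPM in WT, 2.11 to 3.07 in dKO and 4.97 to 5.46 in rescue. In both genes the 3 groups did not overlap. Fbln7 and Hs6st2 were lowest in rescue. Fbln7, an extracellular matrix gene, was at 2.07 to 2.8 CPM in WT, 1.04 to 1.58 in dKO and 0.314 to 0.607 in rescue. Hs6st2, a heparan sulfate sulfotransferase gene, was at 2.41 to 3.4, 1.21 to 2.79 and 0.2 to 0.794, with WT and dKO overlapping.

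A peak of 599 bp at chr10:78043273-78043871 lies within 1 kb of the starts of both Dnmt3l and Aire, which lie on opposite strands and overlap. Dnmt3l, the cofactor of the de novo DNA methyltransferases, was at 15.8, 17.5 and 18.4 CPM in WT, 284.6, 281.1 and 266.3 in dKO, with 224.7, 192.9 and 218.1 in rescue. The 3 groups did not overlap, and rescue stayed far nearer to dKO than to WT. The log2 fold change of rescue against WT was 3.62 (SE 0.0814, edgeR adjusted p 2.13e-10). Aire, a regulator of antigen display in the thymus, was at 0.103 to 0.466 CPM in WT, 1.28 to 2.18 in dKO and 4.32 to 5.42 in rescue. Reads from overlapping genes cannot be told apart in libraries that do not mark strand.

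**Figure D5:**
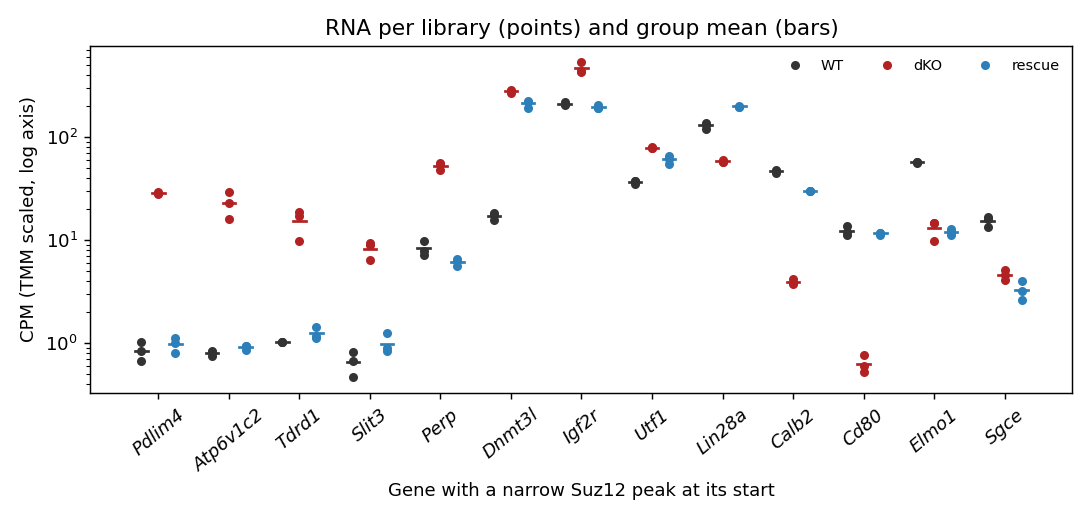
RNA level in CPM on a log axis for 13 genes with a narrow Suz12 peak at the start, with a point for each library and a bar at the mean of each group of 3. Pdlim4, Atp6v1c2, Tdrd1 and Slit3 are high only in dKO, Dnmt3l is high in dKO and rescue, and Elmo1 and Sgce are high only in WT.

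The gene lists were placed by the widest peak at each start, and the narrow class holds 8.39% of all counted genes. No list was tested against that share. Of 39 placed Hox genes, 24 were broad, 8 middle and 1, Hoxa6, narrow, and Hoxa6 had too few counts to be tested. Of 89 other developmental transcription factors, 57 were broad, 20 middle and 4 narrow. Of those 4, Lhx9 and Cdx4 were not tested. Neurod1, a factor of neuronal differentiation, was at 1.79, 1.68 and 2.17 CPM in WT, 0.226, 0.213 and 0.24 in dKO, with 0.915, 0.887 and 1.04 in rescue, and fell in dKO against WT (log2 fold change -3.02, SE 0.276, edgeR adjusted p 1.59e-06). Meis2 is a homeobox partner of Hox proteins, with its peak at an internal listed start. It fell from 33.7 to 37.5 CPM to 16.2 to 22.4 in dKO and stood at 9.52 to 11.3 in rescue. Both tested members thus fell, where 31% of all tested genes fell, and 2 genes are too few for a contrast. Over all peak classes 51 of 61 tested genes of this list rose, where 33.7% of all tested genes rose. None of 18 housekeeping genes had a Suz12 peak of any width at its start.

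Of the genes of the Polycomb machinery, 4 were narrow, near the share of all counted genes. Aebp2, an accessory subunit of PRC2, was the narrow member among 13 placed PRC2 genes, with levels of 101.9 to 132.9 CPM in dKO and 118.8 to 135.7 in WT. It did not pass in dKO against WT (log2 fold change -0.15, edgeR adjusted p 0.195), and without dKO replicate 3 it did (-0.29, adjusted p 0.000709). Of 24 PRC1 genes, Phc3, Ring1 and E2f6 were narrow. E2f6, a repressor of germline genes, rose from 34.2 to 35.1 CPM in WT to 43.7 to 49.6 in dKO (log2 fold change 0.41, SE 0.0667, edgeR adjusted p 0.000169), and stood at 47.3 to 48.1 in rescue. Ring1 and Phc3 did not pass in dKO against WT.

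Of 27 pluripotency genes, Utf1 and Lin28a were narrow. Utf1, a chromatin factor of ES cells, was at 35.4, 37.5 and 37.7 CPM in WT, 78.5, 77.5 and 80.6 in dKO, with 61.8, 55.1 and 65.8 in rescue. Lin28a, which blocks let-7 processing, was at 136.5, 132.5 and 120.0 in WT, 57.7, 56.8 and 60.4 in dKO, with 201.0, 196.8 and 197.9 in rescue. The groups did not overlap in either gene, and the 2 moved in opposite directions in dKO: the log2 fold changes against WT were 1.10 (SE 0.0741) and -1.15 (SE 0.0616), both called by edgeR (adjusted p 1.31e-07 and 1.92e-08).

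Of 27 placed germline genes, 4 were narrow, Mael, Tex14, Tdrd1 and Hormad1, none broad, and 3 of the 4 rose in dKO. Over all peak classes 22 of 27 tested germline genes rose, where 33.7% of all tested genes did. Tdrd1, a Tudor protein of the piRNA pathway, had a peak of 548 bp and went from 1.03 CPM in each WT library to 18.6, 17.2 and 9.82 in dKO, with 1.12 to 1.43 in rescue (dKO against WT, log2 fold change 3.86, SE 0.266, edgeR adjusted p 1.56e-07). Mael, another piRNA pathway gene, went from 3.44 to 4.43 CPM to 19.6 to 23.6. Tex14, needed for the bridges between germ cells, fell from 72.1 to 73.1 CPM to 22.4 to 28.5 and stood at 31.9 to 35.6 in rescue.

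Of 80 neuronal and adhesion genes, 36 were middle and 13 narrow, of which 10 were tested: 6 rose, none fell and 4 did not pass in dKO. Over all peak classes 37 of 60 tested genes of the list, or 61.7%, rose, a share close to that of the narrow members, and 33.7% of all tested genes rose. The median log2 fold change of the 10 tested narrow members was 1.25. Grin1, the core subunit of NMDA receptors, was at 2.48, 2.98 and 2.48 CPM in WT, 18.2, 16.9 and 17.8 in dKO, with 4.14, 4.3 and 4.63 in rescue (dKO against WT, log2 fold change 2.72, SE 0.12, edgeR adjusted p 3.72e-09). Slit3, a guidance ligand of Robo receptors, went from 0.466 to 0.826 CPM to 6.47 to 9.39 and stood at 0.829 to 1.25 in rescue. Chrna4, a nicotinic receptor subunit with its peak at an internal listed start, went from 3.36 to 3.76 CPM to 16.1 to 22.3 and stayed at 16.1 to 20 in rescue. Grin1 in rescue thus returned most of the way to WT, while Chrna4 in rescue overlapped dKO.

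Of 75 signalling genes, 8 were narrow and 6 tested, of which 3 rose and 2 fell in dKO, where 33.7% of all tested genes rose and 31% fell, and 30 of 60 tested genes of the list rose. Rarg, a retinoic acid receptor, was at 25.6 to 28.5 CPM in WT, 13.2 to 14.1 in dKO and 35.9 to 38.9 in rescue (dKO against WT, log2 fold change -0.97, SE 0.0775, edgeR adjusted p 5.13e-07). Id4, an inhibitor of basic helix-loop-helix factors, fell from 16.6 to 20.7 CPM to 4.23 to 5.42, while its relative Id1 rose from 0.56 to 0.62 to 1.64 to 2.56. Notch3 did not pass in dKO against WT, with 83.9 to 106.9 CPM in WT and 89.2 to 133.5 in dKO (0.25, edgeR adjusted p 0.113). It passed without dKO replicate 3 (0.39, adjusted p 0.0129) and without WT replicate 3 (0.37, adjusted p 0.0391).

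Of 26 matrix and fibroblast genes, 4 were narrow: Itga11 and Col5a1 rose, Lamc1 fell and Lama1 did not pass, where 33.7% of all tested genes rose and 31% fell. Lamc1, a laminin chain of basement membrane, was at 1290, 1217 and 1323 CPM in WT, 772.2, 849.5 and 660.3 in dKO, with 1208, 1283 and 1250 in rescue (dKO against WT, log2 fold change -0.75, SE 0.0798, edgeR adjusted p 6.01e-06). Its rescue libraries overlapped WT. Col5a1, a collagen chain, rose from 5.41 to 5.92 CPM to 12.1 to 15.1 and stayed at 12.7 to 14.4 in rescue. Lama1 was at 60.1 to 66.5 CPM in WT and 51.7 to 72.2 in dKO (-0.05, edgeR adjusted p 0.696).

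Of 35 placed imprinted genes, 5 were narrow, and 3 rose and 2 fell in dKO, where 33.7% of all tested genes rose and 31% fell, and 17 of 31 tested genes of the list rose. Igf2r, which clears the growth factor Igf2, was at 217.7, 206.0 and 211.8 CPM in WT, 433.9, 539.3 and 426.7 in dKO, with 190.9, 205.5 and 190.9 in rescue (dKO against WT, log2 fold change 1.14, SE 0.0838, edgeR adjusted p 2.61e-07). dKO stood above both other groups. Inpp5f rose from 14.4 to 16.5 CPM to 25.2 to 30 and stood at 4.97 to 6.74 in rescue, below WT. Sgce and Peg10 share a peak of 952 bp within 1 kb of both, at chr6:4747526-4748477, and both fell. Sgce was at 13.4 to 16.8 CPM in WT, 4.14 to 5.15 in dKO and 2.63 to 4.02 in rescue.

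Of 21 genes of cell-cycle inhibition and the p53 response, 4 were narrow, of which 2 rose and 1 fell in dKO, too few to set against the 33.7% of all tested genes that rose and the 31% that fell. Perp, a desmosome protein and p53 target, was at 7.23, 7.88 and 9.85 CPM in WT, 55.1, 55.5 and 47.9 in dKO, with 6.26, 5.65 and 6.53 in rescue (dKO against WT, log2 fold change 2.66, SE 0.116, edgeR adjusted p 3.52e-09). Gadd45a, a DNA damage response gene, fell from 19 to 19.6 CPM to 6.19 to 7.53 and stayed at 6.96 to 7.19 in rescue. Sesn1, with its peak at an internal listed start, rose from 36.8 to 39.4 CPM to 41.6 to 50.9. Cdkn2a, which encodes p16 and p19Arf, was at 39.3 to 42.4 CPM in WT and 43.2 to 54.8 in dKO, and did not pass (0.24, edgeR adjusted p 0.0609). Without dKO replicate 3 it passed (0.31, adjusted p 0.00718).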

How the data were processed

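Of 71 samples, 9 polyA RNA libraries and the list of Suz12 peaks of 1 ChIP sample were used. The other 61 ChIP samples were not used here, and 2 of them have labels that disagree and are in no group. The authors deposited RNA as raw counts of reads per gene, made with Trimmomatic, STAR 2.4.0 and HTSeq on mm10 per the submitters' processing notes. The kit does not mark strand. The authors deposited the peaks as coordinates alone, other values such as scores being no part of the list. The annotation, counting mode, peak caller, its threshold and any pooling were not given in the sources used here. Positions are 1-based.

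Of the 24222 counted genes, 22859 were placed on GRCm38.p6 by symbol, another 1201 by synonym, and 162 remained unplaced. Listed starts were known for 17923. For the other 6137, among them Lrrc32, Calb2, Plxdc1, Lamc1, Lama1, Sgce, Perp and Id1, either end of the gene was used. A peak counted as near with at least 1 base within 1 kb of a start.

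Counts were fitted with edgeR 4.0.16 in R 4.3.3 (TMM, filterByExpr, robust glmQLFit, glmQLFTest, 2-sided) in 1 model of all 9 libraries with 6 residual degrees of freedom, and p-values were adjusted by Benjamini-Hochberg over the 14145 genes tested. SE is that of the fitted log2 fold change. "Rose" and "fell" mean an adjusted p under 0.05. The fit was tested on simulated data. DESeq2 1.42.0, other filters, each library left out, a replicate block and other definitions of a covered gene were alternatives. Replicate pairs all differed by more than sampling noise, so none was merged. The peaks, the 13 gene lists and the tests were chosen with earlier results of these data known. Named genes, leaving out predicted-gene identifiers (Gm with a number, names ending in Rik, LOC), were called genes with groups that did not overlap and at least 2 CPM in the higher group, the 8 largest changes each way for dKO against WT and the 4 largest for the other comparisons, with up to 3 members of each list by adjusted p and 1 that did not pass. Some of them are described only by their list. Values of 2 genes are not reported here.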

Additional observations from a re-analysis of the deposited data

How the results depend on the processing

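No count of narrow-class genes that rose or fell changed by over 1.5 times with DESeq2, either other filter or only the 2 groups compared. The same held without chromosomes 3, 9, 14 and X, where earlier work on these files saw raised or lowered segments. Itga11 and Filip1 lie on chromosome 9, Pear1 on chromosome 3, and Nhs and Hs6st2 on chromosome X. That setting leaves these genes out, so the part of such segments in their changes was not tested. With each library left out in turn, dKO against WT gave 756 to 858 risen and 309 to 392 fallen and a median of 0.22 to 0.26, rescue against dKO gave 332 to 419, 844 to 944 and -0.36 to -0.32, and rescue against WT gave 371 to 511, 441 to 564 and -0.03 to 0.00. The numbers of the libraries do not pair them: same-numbered libraries correlated between -0.1123 and 0.2008. With the replicate number as a block, 796 rose and 356 fell in dKO against WT, 377 and 886 in rescue against dKO and 444 and 495 in rescue against WT. The block ended the calls of Notch3 (adjusted p 0.0572) and Lama1 (0.0502) in rescue against dKO and added Cdkn2a (0.036) in dKO against WT, all by edgeR.

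Median log2 fold changes moved by more than the spread between libraries in these cases. Leaving out a library gave 0.26 (WT replicate 3) and 0.25 (dKO replicate 3) in dKO against WT, and -0.03 (WT replicate 1) in rescue against WT. Dropping the filter gave 0.27 (dKO against WT) and -0.37 (rescue against dKO). A new fit to genes with a mean of at least 2 CPM alone gave 0.20 (dKO against WT). DESeq2 gave 0.26 (dKO against WT) and 0.01 (rescue against WT), and fitting only the groups compared gave -0.29 (rescue against dKO). A start inside the peak gave 0.29, -0.40 and -0.03 in dKO against WT, rescue against dKO and rescue against WT, and a window of 5 kb gave 0.21 (dKO against WT) and -0.03 (rescue against WT). The median over all tested genes moved too: in dKO against WT from 0.00 to 0.05 without the filter and 0.06 with DESeq2, and in rescue against dKO from -0.04 to -0.12 without the filter and 0.00 with only the groups compared. The cause of what remains was not tested.

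Peaks under 500 bp hold fewer genes (102 tested): 34 rose, 32 fell with a median of 0.03 in dKO against WT, 29, 39 and -0.13 in rescue against dKO, and 26, 28 and 0.02 in rescue against WT. Under 750 bp (1041 tested), 441 rose with a median of 0.14 in dKO against WT, 501 fell with a median of -0.22 in rescue against dKO, and 287 rose and 312 fell in rescue against WT. The share of narrow peaks near a start was 37.6% under 500 bp, 56.5% under 750 bp, 72.4% with a window of 5 kb and 52.0% with protein-coding genes. The share with another peak was 11.5% within 5 kb and 47.4% within 50 kb. Leaving out the 3 densest windows was chosen after seeing the data.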
